A study of Mus musculus with 16 samples.

Results

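Ovaries of mice that were still on testosterone (On T, 4 libraries) were compared with ovaries of their age-matched controls (Control for On T, 4 libraries). These are 8 of the 16 libraries of the series, chosen by their titles alone, and every gene of the deposited expected count table was taken into the comparison. All 8 mice were females of the inbred strain C57BL/6NHsd, with no engineered allele named in the labels, and all were 16 weeks old at collection. Mice of the On T group had been given 0.9 mg testosterone enanthate, a long-acting ester of testosterone, in sesame oil under the skin every week for 6 weeks, starting at 9 to 10 weeks of age. Their controls had been given sesame oil only. A library was made from the poly(A) RNA of 1 whole ovary of 1 mouse, dissected away from the surrounding fat, and the mice are described as killed in diestrus. A whole ovary holds all of its cell types, and fewer cells of a type cannot be told apart here from less RNA per cell.

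Testosterone changes gene expression through a receptor that binds DNA once it holds its ligand, and aromatase can turn it into estrogen. In females it also acts on the brain and the pituitary, which release the gonadotropins that drive follicle growth and ovulation. The cycling ovary is built from follicles with granulosa and theca cells around an oocyte, corpora lutea left after ovulation, a stroma with smooth muscle, vessels and nerves, and a surface epithelium.

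The 8 libraries held 29004008 to 52659637 expected counts, so 3 counts, taken as the floor of detection, came to 0.0571 to 0.102 CPM, that is, counts scaled to library size. Of 18833 genes tested with edgeR's quasi-likelihood test, 1746 passed at a Benjamini-Hochberg adjusted p of 0.05 (9.27%), of which 799 were higher (4.24%) and 947 lower (5.03%) on testosterone. Genes that passed are called higher or lower from here on. Of the called genes 505 differed by less than 1.5-fold, while 199 were lower and 43 higher by more than 4-fold. The median log2 fold change over all genes tested was -0.005, and the fitted values of 5% of the genes lay below -0.76 and of 5% above 0.69. On the first principal component, which held 44.8% of the variance of the 8 libraries, the controls lay between -52.31 and -20.26 and the On T libraries between 23.59 and 45.74. On T library 2 stood apart on the second component (17.4% of the variance) at -53.34, where the other 7 libraries lay between -19.84 and 28.04.

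**Figure D1:**
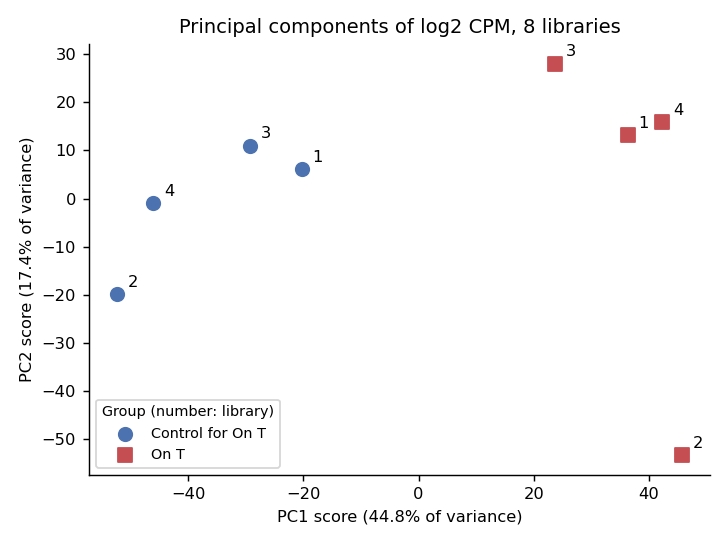
Scores of the 8 libraries on the first (x axis) and second (y axis) principal component of log2 CPM, with controls as circles, On T libraries as squares and library numbers beside them. The groups are separated along the x axis by the gap between -20.26 and 23.59, and On T library 2 lies alone at -53.34 on the y axis.

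The largest rises outside luteal, steroid and immune genes were in contractile, adhesion and enzyme genes. Myh6, an alpha myosin heavy chain of heart muscle, was at 1.27, 0.882, 1.20 and 0.764 CPM in control libraries 1 to 4 and at 61.0, 103, 34.1 and 63.8 in On T libraries 1 to 4. Its neighbour Myh7, the beta heavy chain, was at 0.780 to 0.994 CPM in the controls and at 9.05, 10.7, 5.35 and 9.13 on testosterone. For both genes the lowest On T library was library 3 and the groups were far from overlapping. Vcam1, a cell adhesion molecule that binds integrins of white blood cells, is a minus-strand gene (GRCm38, chromosome 3, 116109949 to 116129688). Its levels were 38.6, 20.2, 24.6 and 22.3 CPM in the controls and 167, 198, 106 and 204 CPM on testosterone. This rise of 2.67 on the log2 scale (with SE 0.27, edgeR adjusted p = 7.55e-06) was seen in every On T library. Casq2, a calcium store protein of muscle, rose from 2.53 ± 0.389 to 12.3 ± 4.87 CPM (SD, n = 4, log2 change 2.27 with SE 0.31, edgeR adjusted p = 0.000178). Chdh, which oxidises choline in mitochondria, rose from 9.58 ± 2.73 to 39.7 ± 10.1 CPM (log2 change 2.05 with SE 0.27, edgeR adjusted p = 0.000137).

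Other genes among the 12 largest rises were secreted or conjugating proteins. Lcn2, an iron-binding lipocalin, was at 1.45 to 2.10 CPM in the controls and at 7.33, 10.6, 5.96 and 9.21 on testosterone. Gpha2, the alpha subunit of the glycoprotein hormone thyrostimulin, was at 0.848 to 2.96 CPM in the controls and at 8.82, 7.86, 5.98 and 5.69 on testosterone. Sult1a1, a sulfotransferase of phenols, was at 5.80 to 11.7 CPM in the controls and at 35.0, 35.5, 24.3 and 36.8 on testosterone. None of these 3 overlapped between groups, and their log2 fold changes were 2.24, 2.04 and 1.97 (SE 0.38, 0.38 and 0.21). Gsta2, Pdia2, Oit3 and Spink4 complete the 12, with log2 fold changes of 3.11, 3.07, 2.20 and 2.16. Gsta2 has near-identical relatives, and Myh6 and Myh7 are close paralogs, so the split of reads within these families is uncertain.

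The largest falls were larger than the largest rises, and several left a gene near the floor of detection. Onecut2, a homeobox transcription factor, was at 14.2, 21.2, 19.8 and 14.9 CPM in the controls and had 10 counts in the 4 On T libraries together, at 0.0571 to 0.0867 CPM. Plekhg4, a guanine nucleotide exchange factor, was at 61.2, 124, 108 and 144 CPM in the controls and at 0.514, 0.819, 0.810 and 0.347 on testosterone. Ccn5, a secreted matricellular protein (chromosome 2, 163820861 to 163833146, plus strand), was at 38.4, 111, 89.2 and 138 CPM in the controls and at 1.26, 1.44, 1.71 and 1.44 on testosterone. Ccn5 thus fell by 6.01 on the log2 scale (with SE 0.48, edgeR adjusted p = 8.47e-07), and control library 1 was the lowest control for both Plekhg4 and Ccn5.

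Genes of cell adhesion and of neurons were among these falls. Nrcam, a cell adhesion molecule of axons (chromosome 12, 44328885 to 44601964, plus strand), was at 18.1, 123, 31.8 and 73.8 CPM in the controls and at 1.43, 1.60, 1.27 and 1.53 on testosterone. Megf10, an engulfment receptor, was at 23.2, 72.3, 33.9 and 73.0 CPM in the controls and at 0.971, 0.983, 2.23 and 1.13 on testosterone. In both genes control libraries 2 and 4 held the higher control values. Cntnap5a, a neurexin-family adhesion protein, was more even, at 11.4 to 15.3 CPM in the controls against 0.133 to 0.328 on testosterone (log2 change -5.81 with SE 0.58, edgeR adjusted p = 8.46e-06). Ptprn, a protein of dense core vesicles in neuroendocrine cells, was at 6.32 to 13.3 CPM against 0.229 to 0.476 (log2 change -4.66 with SE 0.52, edgeR adjusted p = 2.57e-05). Cryba4, a crystallin, was at 3.50 to 6.69 CPM against 0.0867 to 0.229 (log2 change -4.77 with SE 0.32, edgeR adjusted p = 1.27e-07). Ces2a, a carboxylesterase with close relatives in its family, varied widely among controls, at 0.648, 25.2, 0.946 and 17.6 CPM, against 0.0952 to 0.231 CPM on testosterone. Its fall was -6.34 (edgeR adjusted p = 0.013), and -5.54 without control library 2 (adjusted p = 0.0401). The fall of Nrcam was -5.40, and -4.81 without control library 2 (adjusted p = 1.71e-05).

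Control library 2 was the highest control for 40 of the 71 called-lower genes that the naming rule chose, control library 4 for 14, and libraries 1 and 3 for 8 and 9. On T library 2 was the highest On T library for 36 of the 58 called-higher genes that it chose. The groups did not overlap for 67 of the 71 and for 57 of the 58. The naming rule required this of its largest rises and falls and mostly took the others for a small p. These counts follow in large part from that choice and are not comparable with the 15.1% of all genes tested that had no overlap.

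**Figure D2:**
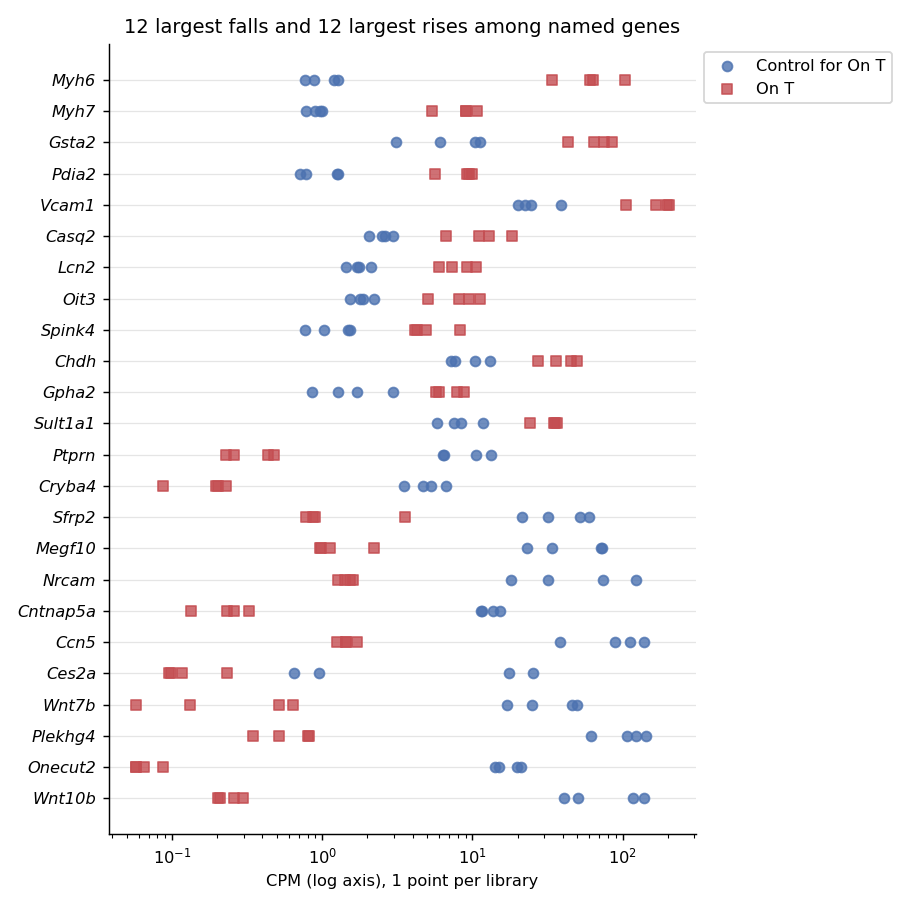
CPM on a log axis (x) of the 12 genes with the largest falls and the 12 with the largest rises under the naming rule (y axis), with 1 circle per control library and 1 square per On T library. Wnt10b and Onecut2 at the bottom lie at or below 0.295 CPM in all 4 On T libraries, while Myh6 at the top lies at 34.1 CPM or above in them.

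Muscle genes were called in both the striated and the smooth list. Of 20 genes of the striated muscle sarcomere that were tested, 5 were higher and 1 lower, with a median log2 fold change of 0.15. The number higher was 3 without control library 2, control library 4 or On T library 4, and 4 in the other such fits. Without control library 1 or On T library 1, 2 were lower. Besides Myh6 and Myh7, Tnni2, the inhibitory troponin of fast muscle, rose from 0.835 ± 0.353 to 2.77 ± 1.17 CPM (log2 change 1.72 with SE 0.40, edgeR adjusted p = 0.0108). Myl1, an essential myosin light chain, fell from 1.41 ± 0.675 to 0.388 ± 0.169 CPM (log2 change -1.80 with SE 0.36, edgeR adjusted p = 0.00436). These 4 genes kept their calls whichever of the 8 libraries was left out. The skeletal and cardiac markers Myh1, Myh3, Myh4, Myh8, Myl2, Myl3, Myl7, Ckm and Nppa had too few counts to be tested. The summed level of the list was 106 to 133 CPM in the controls and 239 to 265 CPM on testosterone, with On T library 3 the lowest of its group.

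Of 18 contractile genes of smooth muscle, 6 were higher, 0 were lower and all 18 had a positive log2 fold change, with a median of 0.74. Their summed level was 2430, 2100, 2380 and 2140 CPM in the controls and 2910, 5340, 2580 and 3070 CPM on testosterone. The groups did not overlap, but On T library 2 stood far above the other On T libraries. Without it the median was 0.30 and 2 genes were higher. The number was also 2 without control library 2 or control library 4, and 3 without control library 3. Myl9, the regulatory myosin light chain of smooth muscle, was at 141, 105, 134 and 111 CPM in the controls and at 186, 373, 169 and 205 on testosterone (log2 change 0.93 with SE 0.20, edgeR adjusted p = 0.00781). Myl9 and Casq2 kept their calls without each library in turn.

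Markers of the ovary's cell types were read for how the makeup of the samples moved. The second On T library had less granulosa and epithelial RNA than any other library. The summed level of 18 granulosa markers, genes of the cells that surround the oocyte, was 9790, 8720, 12200 and 12900 CPM in the controls and 12500, 5150, 16300 and 12500 CPM on testosterone. Markers of the surface epithelium (17 genes, 0 called by edgeR, DESeq2 or limma, 2 at an unadjusted p below 0.05) summed to 365 to 471 CPM in the controls and to 515, 195, 503 and 241 on testosterone, where libraries 2 and 4 were low. Of the granulosa markers 1 was lower and 0 higher, and without On T library 2 the numbers were 1 and 4. That lower gene was Wnt4, described below. Foxl2, the transcription factor that keeps granulosa cell identity, was at 196 to 264 CPM in the controls and at 314, 212, 353 and 253 on testosterone, with overlapping groups (log2 change 0.29 with SE 0.18, edgeR adjusted p = 0.369). The testis factor Sox9 was at 2.61 to 4.38 CPM against 2.11 to 3.96 CPM (log2 change -0.31 with SE 0.22, edgeR adjusted p = 0.449), and Dmrt1, another testis factor, had too few counts to be tested. Of 12 tested genes that mark testis-type supporting or Leydig cells, Gata1 and Cldn11 were higher, and 1 gene was without control library 2 or 4. Cldn11, a tight junction protein of Sertoli cells and of myelin, rose from 10.5 ± 2.88 to 28.5 ± 9.66 CPM (log2 change 1.43 with SE 0.23, edgeR adjusted p = 0.000899).

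Of 12 nerve and glia markers tested, 5 were lower and 0 higher, and all 5 kept their calls without each library in turn. The list as a whole did not move 1 way, since 5 of the 12 had a positive log2 fold change, the highest being 0.97, and the median was -0.14. The summed level of the list, carried mainly by Uchl1 and Mbp, was 294 to 384 CPM in the controls and 126 to 145 CPM on testosterone. Mbp, a protein of myelin that is also made in shorter forms by other cells, was at 52.1, 103, 73.0 and 104 CPM in the controls and at 16.8, 10.4, 14.3 and 9.85 on testosterone (log2 change -2.69 with SE 0.22, edgeR adjusted p = 1.28e-06). Uchl1, a ubiquitin hydrolase abundant in neurons and oocytes, was at 181, 175, 241 and 159 CPM against 85.5, 59.1, 71.3 and 71.9 (log2 change -1.39 with SE 0.17, edgeR adjusted p = 5.7e-05). Tubb3, a neuronal tubulin, fell from 34.4 ± 9.68 to 9.23 ± 2.76 CPM (log2 change -1.90 with SE 0.25, edgeR adjusted p = 0.000132). The calcium-binding protein gene S100b and the intermediate filament gene Prph fell as well (log2 change -3.01 and -1.79 with SE 0.55 and 0.33). The defining glial marker Sox10 and the neuronal markers Dbh, Nefl, Nefm and Snap25 were too low to be tested in either group.

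Theca and interstitial markers, from the androgen-making cells of the ovary, included 5 lower and 1 higher of 15. The list as a whole did not move 1 way, since 6 of the 15 had a positive log2 fold change and the median was -0.14. Cyp17a1 and Insl3 were not called, and the lower genes Cyp11a1 and Star are also in the luteal list. No marker was higher when On T library 2 or any control but library 1 was left out, 2 were when On T library 1 was, and 3 when On T library 3 was. The summed level of the list, to which Cyp11a1 adds, was 14200 to 18000 CPM in the controls and 9480, 8000, 13400 and 7850 CPM on testosterone. Mgarp, a mitochondrial protein of steroid-making cells, was at 490 to 802 CPM in the controls and at 256, 198, 372 and 195 CPM on testosterone (log2 change -1.26 with SE 0.21, edgeR adjusted p = 0.000925). Ephx2, the soluble epoxide hydrolase, was at 636 to 989 CPM against 331, 121, 375 and 337 CPM (log2 change -1.53 with SE 0.26, edgeR adjusted p = 0.00114). Of 26 luteal genes 14 were lower and 1 higher in the same comparison, and their summed level was 14000 to 16700 CPM in the controls and 6920 to 10400 CPM on testosterone. The part of luteal tissue in the falls described here was not tested.

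The other cell types moved less. Oocyte markers (23 tested) had 1 gene higher, and 0 without control library 2, control library 4 or On T library 2, and summed to 408 to 927 CPM in the controls and to 555 to 629 CPM on testosterone. Blood endothelium (20 tested) had 1 gene higher, namely Vwf, the clotting factor stored in endothelial cells, at 15.7, 13.6, 11.4 and 19.9 CPM in the controls and 33.7, 42.9, 20.6 and 47.2 CPM on testosterone. The groups did not overlap, and control library 4 and On T library 3 lay closest to each other. Lymphatic and pericyte markers (14 tested) had 3 genes higher. The list as a whole did not rise, with 7 positive log2 fold changes, a median of -0.03, and -0.22 without On T library 2. Mmrn1, a secreted protein of lymphatic endothelium, rose from 24.9 ± 2.36 to 58.7 ± 13.8 CPM (log2 change 1.24 with SE 0.22, edgeR adjusted p = 0.00157), and Ccl21a, a chemokine of lymphatic endothelium, from 86.6 ± 14.7 to 190 ± 60.3 CPM (log2 change 1.13 with SE 0.21, edgeR adjusted p = 0.00265). The lymphatic regulator Prox1 had a log2 fold change of 0.64 (with SE 0.26, edgeR adjusted p = 0.151). Red cell and platelet genes (7 tested) and mast cell and neutrophil genes (8 tested) held 0 called by edgeR, DESeq2 or limma and 1 gene each at an unadjusted p below 0.05.

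Adipocyte markers, which report fat left on the organ as well as lipid-storing cells, summed to 150, 406, 243 and 265 CPM in the controls and to 78.9, 134, 108 and 73.0 CPM on testosterone. Of 12 tested, Plin4, a coat protein of lipid droplets, was lower and 0 were higher. Plin4 was at 55.2, 309, 51.1 and 196 CPM in the controls and at 11.6, 20.8, 8.67 and 10.2 on testosterone (log2 change -3.58 with SE 0.61, edgeR adjusted p = 0.00121), and it was -2.96 without control library 2 (adjusted p = 0.00419). Adipoq, the fat cell hormone, was at 0.0216, 1.80, 6.29 and 0 CPM in the controls and at 0.0381, 1.97, 0.0289 and 0.0289 on testosterone, so that control libraries 2 and 3 and On T library 2 held nearly all of it. The oviduct gene Ovgp1 was at 3.11, 6.96, 0.971 and 3.66 CPM against 0.724, 2.03, 5.84 and 0.549, with overlapping groups (log2 change -0.69 with SE 0.59, edgeR adjusted p = 0.545). These markers differed between libraries within each group, and the part of fat and oviduct tissue in the results was not tested.

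**Figure D3:**
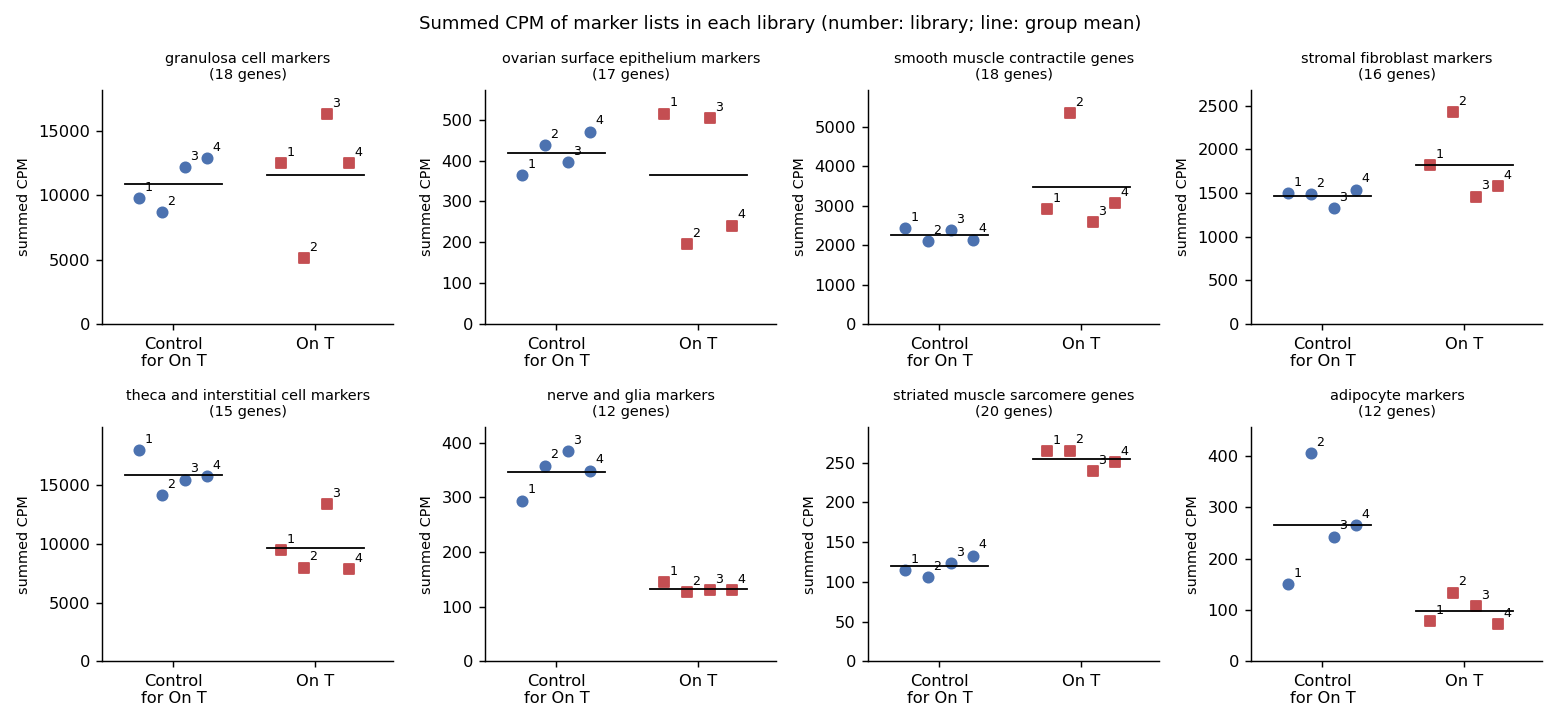
Summed CPM (y axes, from 0) of 8 marker lists in each library, with circles for controls, squares for On T libraries, library numbers beside the points and a line at each group's mean. On T library 2 is the lowest library for granulosa markers at 5150 CPM and the highest for smooth muscle genes at 5340 CPM, while nerve and glia markers and sarcomere genes are separated between the groups in every library.

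Wnt ligands, secreted proteins that signal through Frizzled receptors and direct ovarian development and follicle growth, were called lower more often than higher. Of 14 ligands and R-spondins tested, 6 were lower and 2 higher, with a median log2 fold change of -0.59, against 5.03% lower and 4.24% higher among all genes. Wnt10b was at 40.7, 139, 50.2 and 116 CPM in the controls and at 0.209, 0.295, 0.260 and 0.202 on testosterone. Wnt7b was at 17.0, 49.6, 45.9 and 25 CPM in the controls and at 0.514, 0.131, 0.636 and 0.0578 on testosterone. Both ligands, which act mostly through beta-catenin, were thus nearly lost from all 4 On T ovaries. Wnt4, the ligand needed for the female gonad, was even within each group, at 169, 151, 137 and 164 CPM in the controls and 62.3, 63.7, 53.5 and 56.5 CPM on testosterone (log2 change -1.40 with SE 0.12, edgeR adjusted p = 1.28e-06). Wnt10a fell from 2.80 ± 0.971 to 0.160 ± 0.226 CPM (log2 change -4.11 with SE 0.57, edgeR adjusted p = 0.000228), and Wnt5a, a ligand that mostly signals without beta-catenin, from 79.6 ± 7.64 to 48.3 ± 10.3 CPM (log2 change -0.72 with SE 0.16, edgeR adjusted p = 0.00868).

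The ligands that rose were Wnt6, from 52.2 ± 8.29 to 81.6 ± 5.23 CPM, and Wnt5b, from 10.7 ± 0.796 to 16.6 ± 1.58 CPM (log2 change 0.64 and 0.63 with SE 0.12 and 0.10, edgeR adjusted p = 0.00301 and 0.000655). Wnt6 and Wnt10a are neighbours on chromosome 1 and moved in opposite directions. The called ligands other than Wnt11 kept their calls without each library in turn. Among 32 receptors, antagonists and targets, 2 were higher and 4 lower, and 4 were higher without On T library 3. Fzd2, a Frizzled receptor, was at 44.1, 31.3, 47.4 and 41 CPM in the controls and 75.5, 80.8, 75.5 and 81.4 CPM on testosterone (log2 change 0.93 with SE 0.15, edgeR adjusted p = 0.000728), while Fzd1 fell from 86.6 ± 14.5 to 44.2 ± 10.7 CPM (log2 change -0.97 with SE 0.19, edgeR adjusted p = 0.00396). Sfrp2, a secreted antagonist, was at 32, 21.3, 59.6 and 52.3 CPM in the controls and at 0.781, 3.57, 0.867 and 0.895 on testosterone, where library 2 was the highest. Its log2 fold change was -4.80 (SE 0.53, edgeR adjusted p = 2.35e-05), and the value was -5.61 when On T library 2 was left out (adjusted p = 8.5e-06). Sfrp5, another secreted antagonist, was the other higher gene of this list. It kept its call in all 15 alternative fits, with log2 fold changes of 0.593 to 4.019 in them. Sfrp4, of the same family, was counted in the luteal list instead and was lower (log2 change -7.63). Lgr5, a receptor of R-spondins, fell from 34.7 ± 18.2 to 7.47 ± 6.08 CPM (log2 change -2.19 with SE 0.52, edgeR adjusted p = 0.0136). Axin2, a general target of beta-catenin signalling, was at 32 ± 1.49 CPM in the controls and 28.6 ± 3.58 CPM on testosterone (log2 change -0.16 with SE 0.13, edgeR adjusted p = 0.524).

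**Figure D4:**
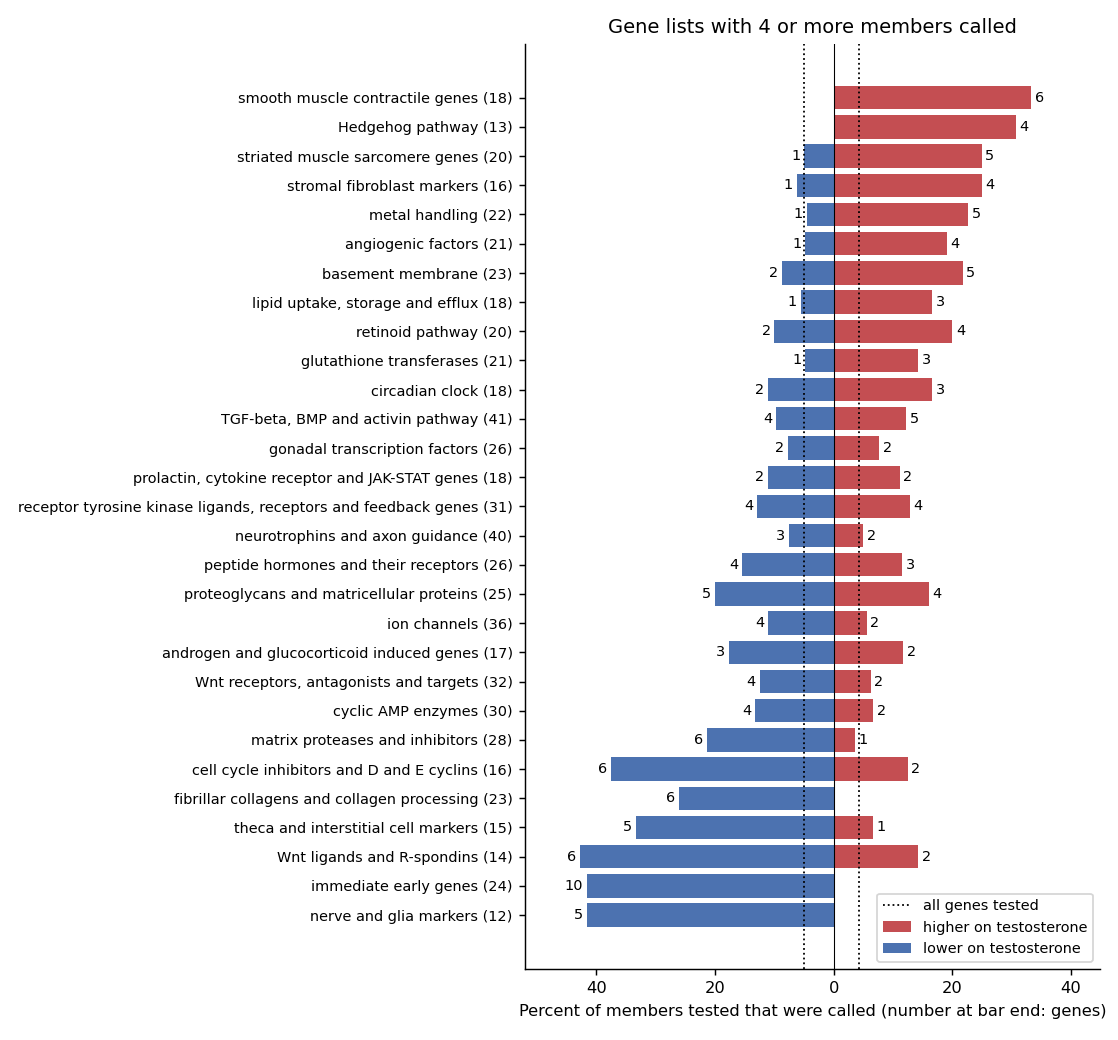
Share of the tested members of each list that were called (x axis, percent), to the right where higher and to the left where lower on testosterone, for the 29 lists of cell types and functions with 4 or more called members, with the number tested in brackets and dotted lines at 4.24% and 5.03% for all genes. Immediate early genes, Wnt ligands and nerve markers extend farthest to the left, and smooth muscle genes (6 of 18) and Hedgehog genes (4 of 13) farthest to the right, the latter numbers falling to 2 and 2 without On T library 2.

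Several brakes on the cell cycle fell, while no gene of division itself passed. Of 16 inhibitors, stress-induced brakes and D and E cyclins, 6 were lower and 2 higher, and 1 was higher when any library other than control library 1 was left out. Cdkn2b, which encodes the inhibitor p15 of cyclin-dependent kinases (chromosome 4, 89306299 to 89311039, minus strand), was at 14.8, 23.2, 18.8 and 17.9 CPM in the controls and at 1.52, 2.03, 1.53 and 1.39 on testosterone (log2 change -3.53 with SE 0.19, edgeR adjusted p = 8.95e-09). Cdkn1a, which encodes p21, was at 37.4, 116, 56.3 and 111 CPM in the controls and at 12.8, 7.24, 8.30 and 7.97 on testosterone (log2 change -3.14 with SE 0.36, edgeR adjusted p = 3.86e-05). Gadd45a, a growth arrest gene, was at 81.2, 113, 92.5 and 108 CPM against 35.3, 33.8, 21.6 and 39.0 CPM (log2 change -1.60 with SE 0.19, edgeR adjusted p = 4.67e-05). In none of these 3 did a control reach as low as any On T library. The inhibitor genes Cdkn1b and Cdkn2a were lower too (log2 change -0.58 and -1.26 with SE 0.12 and 0.25), whereas Cdkn1c, the imprinted gene of the inhibitor p57, was higher at 29.9, 25.2, 18.6 and 30.3 CPM on testosterone against 12.3, 17.3, 9.64 and 16.1 (log2 change 0.91 with SE 0.22, edgeR adjusted p = 0.0126). These 6 genes kept their calls without each library in turn.

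Of 28 genes of DNA replication and mitosis 0 were called, 26 had a positive log2 fold change and their median was 0.13. None of them had an unadjusted edgeR p below 0.05 or was called by DESeq2 or limma. The median was 0.28 without On T library 2, where 1 of them was higher, and -0.03 without On T library 3, so that its sign rested on the library left out. Mki67, a marker of dividing cells, was at 119 ± 21.9 CPM in the controls and 118 ± 28.6 CPM on testosterone (log2 change -0.01 with SE 0.15, edgeR adjusted p = 0.98). Ccnd2, the D cyclin of granulosa cells, was at 294 ± 53.9 and 282 ± 72.6 CPM (log2 change -0.06 with SE 0.16, edgeR adjusted p = 0.872). Among 23 regulators of apoptosis 1 was higher and 2 lower (13% called, near the 9.27% of all genes tested). The number higher was 2 without On T library 2 or 3, and the number lower was 1 without control library 4 or On T library 1, 3 or 4. Tnfrsf12a, the receptor of the cytokine TWEAK, was at 31.9, 108, 40.9 and 103 CPM in the controls and at 11.5, 6.68, 7.86 and 8.58 on testosterone (log2 change -3.03 with SE 0.34, edgeR adjusted p = 2.69e-05), and Bcl2, which blocks cell death, rose from 18.0 ± 1.14 to 27.5 ± 6.19 CPM (log2 change 0.61 with SE 0.14, edgeR adjusted p = 0.00982).

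Genes of the extracellular matrix were called in both directions, with several fibrillar collagens and matricellular proteins lower and several basement membrane chains and small proteoglycans higher. Of 23 fibrillar collagens and genes of collagen processing, 6 were lower and 0 higher, with a median of -0.28. Col3a1, the chain of type III collagen, was at 1282, 1156, 1103 and 1098 CPM in the controls and at 558, 933, 693 and 716 on testosterone (log2 change -0.68 with SE 0.13, edgeR adjusted p = 0.00375). Its neighbour on chromosome 1, Col5a2, fell from 109 ± 10.2 to 71.7 ± 6.52 CPM (log2 change -0.60 with SE 0.13, edgeR adjusted p = 0.00754). Pcolce2, which helps trim procollagens, was at 3.28, 10.5, 8.84 and 5.66 CPM against 0.228, 0.491, 0.723 and 0.318 (log2 change -4.03 with SE 0.60, edgeR adjusted p = 0.000422). On T library 2 was the highest of its group for Col3a1, and without it 9 genes of this list were lower and the median was -0.48. The number lower was 4 without control library 4 or On T library 1, 3 or 4, and 1 gene was higher without On T library 3.

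Of 23 basement membrane genes, which form the sheets under epithelia, vessels and follicles, 5 were higher and 2 lower, and all 7 kept their calls without each library in turn. The number lower was 5 when control library 1 was left out and 4 when On T library 2 was, where the median was -0.01. Col4a4 and Col4a3, which are neighbours on chromosome 1 and encode chains that assemble with each other, rose together. Col4a4 was at 47.4, 44.5, 40.9 and 50.4 CPM in the controls and at 74.7, 137, 78.7 and 114 on testosterone (log2 change 1.14 with SE 0.19, edgeR adjusted p = 0.000889). Col4a3 was at 9.87 to 12.4 CPM against 22.2, 35.4, 19.4 and 29.0 (log2 change 1.21 with SE 0.19, edgeR adjusted p = 0.000546). For both, the groups were separate and On T library 2 was the highest. The laminin chains Lama2 and Lama4 were also higher (log2 change 0.70 and 0.41 with SE 0.16 and 0.09), whereas Col15a1, the core of a proteoglycan beneath vessels and muscle, fell from 139 ± 23.8 to 62.2 ± 16.0 CPM (log2 change -1.16 with SE 0.18, edgeR adjusted p = 0.000718). The widespread chain Col4a1 was at 1250 ± 245 CPM in the controls and 922 ± 165 CPM on testosterone and did not pass (edgeR adjusted p = 0.0906).

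Of 25 proteoglycans and matricellular proteins, 4 were higher and 5 lower, and 3 were lower when control library 2, control library 4, On T library 1 or On T library 3 was left out. All of those that rose, namely Dcn, Fmod, Ogn and Prelp, encode small leucine-rich proteoglycans that bind collagen fibrils. Ogn was at 211, 156, 181 and 153 CPM in the controls and at 284, 488, 257 and 270 on testosterone (log2 change 0.89 with SE 0.18, edgeR adjusted p = 0.00436). Dcn rose from 210 ± 32.5 to 401 ± 154 CPM (log2 change 0.94 with SE 0.22, edgeR adjusted p = 0.0141). Within the same family, Lum and Bgn did not pass (log2 0.08 and 0.22, edgeR adjusted p = 0.835 and 0.505). Tnc, a matricellular glycoprotein of remodelling tissue (chromosome 4, 63959785 to 64047015, minus strand), was at 270, 445, 400 and 288 CPM in the controls and at 18.4, 30.2, 31.2 and 23.8 on testosterone (log2 change -3.76 with SE 0.28, edgeR adjusted p = 4.47e-07). Acan, the large proteoglycan of cartilage and follicular fluid, was at 2.50 to 4.42 CPM against 0.751 to 1.31 (log2 change -1.77 with SE 0.35, edgeR adjusted p = 0.00363). Stromal fibroblast markers, with which the small proteoglycans overlap, had 4 of 16 higher and 1 lower, with a median of 0.28 that was -0.07 without On T library 2, and summed to 1330 to 1540 CPM in the controls and to 1820, 2430, 1460 and 1580 CPM on testosterone. The part of stromal cell number in the proteoglycan values was not tested.

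Proteases of the matrix and their inhibitors were lower in 6 of 28 cases and higher in 1. Timp1, an inhibitor of metalloproteases, was at 70.9, 223, 138 and 194 CPM in the controls and at 13.8, 13.5, 15.3 and 11.3 on testosterone (log2 change -3.54 with SE 0.33, edgeR adjusted p = 4.14e-06). Plat, an activator of plasminogen, was at 82.1 to 115 CPM against 45.9 to 62.8 (log2 change -0.87 with SE 0.14, edgeR adjusted p = 0.000629). The groups did not overlap for either gene. Mmp14, a membrane-bound collagenase, fell from 255 ± 21.2 to 185 ± 9.72 CPM, and Adamts2, the procollagen peptidase, rose from 281 ± 15.2 to 424 ± 106 CPM (log2 change -0.46 and 0.59 with SE 0.11 and 0.14, edgeR adjusted p = 0.00985 and 0.0156).

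**Figure D5:**
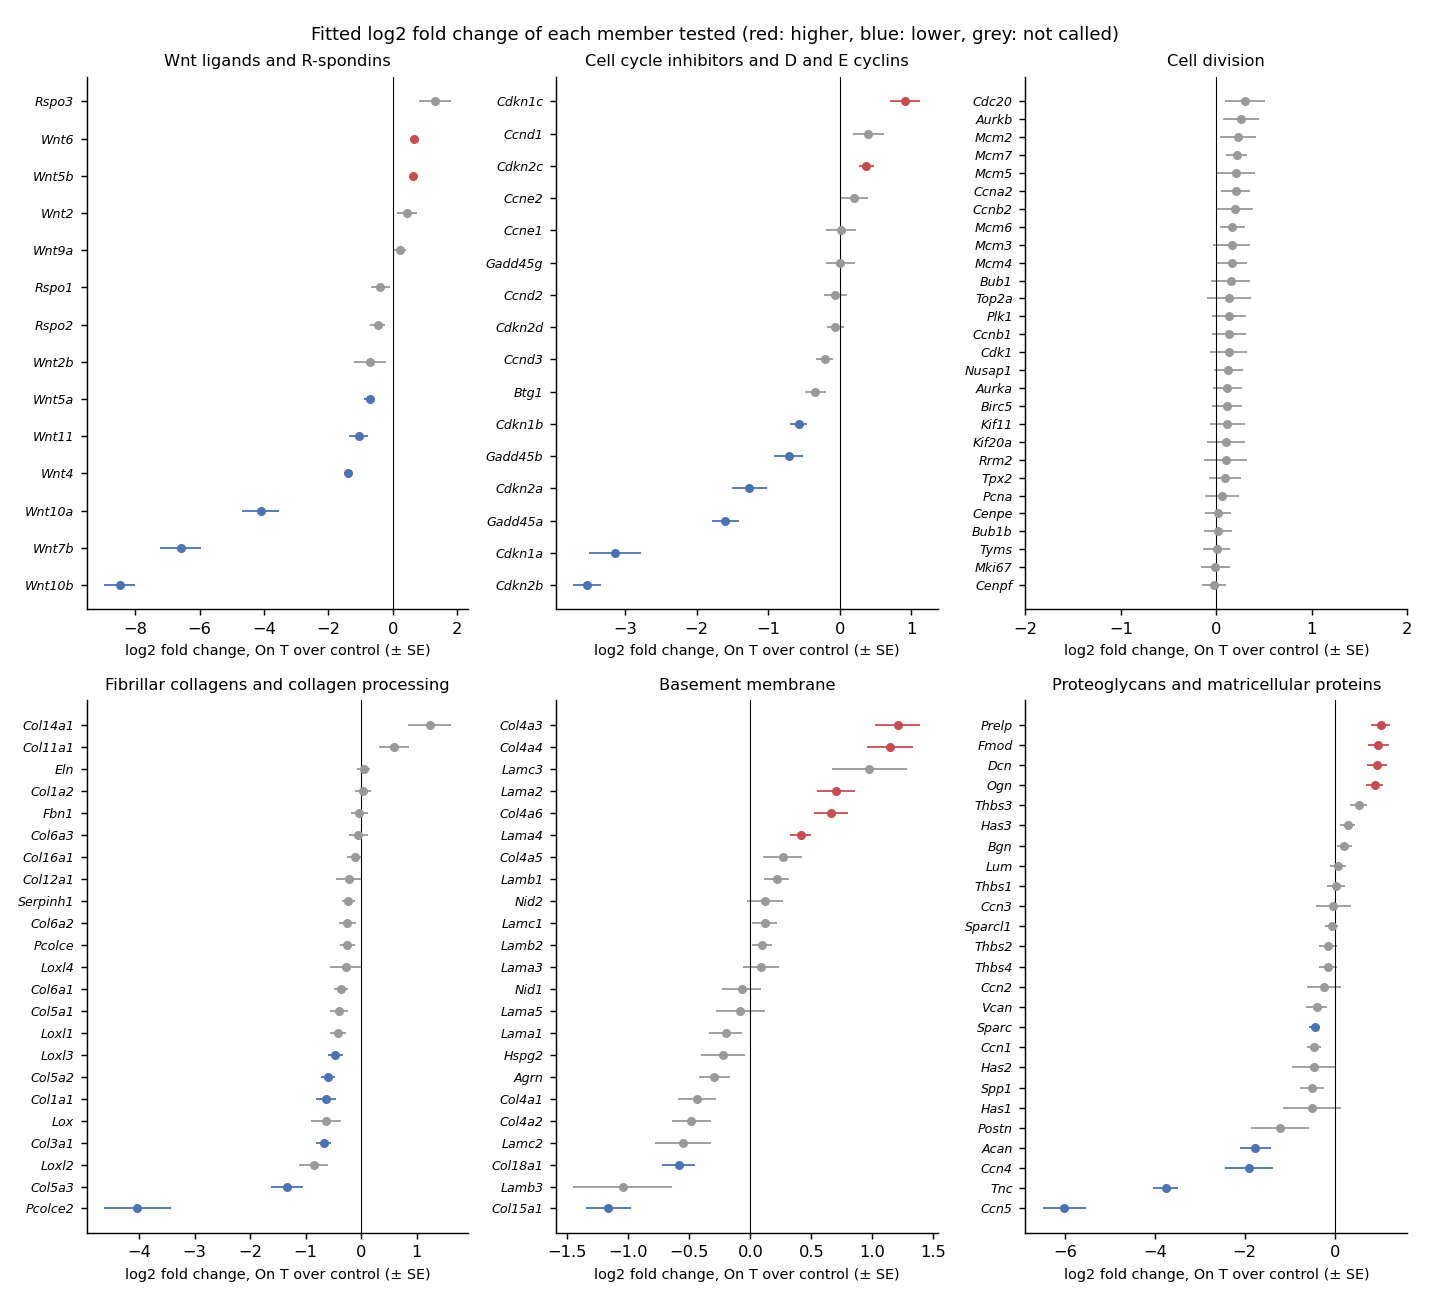
Fitted log2 fold changes of On T over control (x axes) with their SE for every tested member (y axes) of 6 lists, in red where called higher, blue where called lower and grey where not called. The inhibitors Cdkn2b and Cdkn1a lie at -3.53 and -3.14, while all 28 cell division genes lie close to 0 with a median of 0.13.

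Immediate early genes, transcription factors and regulators induced rapidly after a stimulus, were lower in 10 of 24 cases and higher in 0, with a median of -0.93. Fosl2, a FOS-family factor, was at 496, 698, 393 and 640 CPM in the controls and at 202, 244, 221 and 287 on testosterone (log2 change -1.22 with SE 0.17, edgeR adjusted p = 0.00028). Jun, its main partner, was at 114, 137, 98.5 and 125 CPM against 63.6, 69.0, 62.7 and 47.4. The survival gene Ier3 was at 25.1, 46.8, 27.2 and 55.6 CPM against 10.7, 8.88, 7.78 and 9.85. For these 3 the groups did not overlap. Fos and Egr1, the most rapidly induced of the list, did not pass (log2 -0.32 and -0.64, edgeR adjusted p = 0.332 and 0.195). The number of lower genes ranged from 7 to 12 when each library was left out in turn, and it was 7 without control library 2, control library 4 or On T library 4. The time from death to preservation was not given in the sources used here.

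FOS and JUN proteins pair to bind the AP-1 element, so promoters were searched on both strands for a loose form of it, TGANTCA with any base at N. TGAATCA and TGATTCA thus counted as matches besides TGAGTCA and TGACTCA. The search ran from 250 bases before to 50 bases after each gene's start (RefSeq, GRCm38.p6). Among the 12715 tested genes with a promoter the loose form was present in 5.45%, in 64 of 688 genes called lower (9.3%) and in 41 of 592 called higher (6.93%). Of the genes the naming rule chose it was found in 4 of 56 called lower and in 2 of 41 called higher that had a promoter. The 2 higher genes were Chdh and Mylk, with matches at -6 and -64. The promoters of 3 of those 4 lower genes are shown as examples of where the motif lies (the other, Me1, has its match at -6), with AP-1 matches in capitals and every sequence written 5′ to 3′ on the strand of the gene. Srxn1, which repairs oxidised peroxiredoxins, lies at chr2:152105274-152105573 on the plus strand and has 2 matches. Mgst2, a microsomal glutathione transferase, lies at chr3:51660929-51661228 on the plus strand. Nts, the neuropeptide neurotensin, lies at chr10:102490369-102490668 on the minus strand.
Srxn1: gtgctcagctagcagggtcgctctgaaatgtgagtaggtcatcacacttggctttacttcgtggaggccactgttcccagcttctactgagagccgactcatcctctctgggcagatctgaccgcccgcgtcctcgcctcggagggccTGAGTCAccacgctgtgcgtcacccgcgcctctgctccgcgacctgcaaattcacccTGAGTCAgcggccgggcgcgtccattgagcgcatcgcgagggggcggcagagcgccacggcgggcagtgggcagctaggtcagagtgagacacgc
Mgst2: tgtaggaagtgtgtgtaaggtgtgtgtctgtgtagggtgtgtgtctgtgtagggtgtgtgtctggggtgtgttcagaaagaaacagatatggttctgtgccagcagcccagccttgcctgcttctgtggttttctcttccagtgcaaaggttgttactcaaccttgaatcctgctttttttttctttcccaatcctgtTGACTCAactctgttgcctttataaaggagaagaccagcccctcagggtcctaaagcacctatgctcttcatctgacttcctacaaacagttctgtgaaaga
Nts: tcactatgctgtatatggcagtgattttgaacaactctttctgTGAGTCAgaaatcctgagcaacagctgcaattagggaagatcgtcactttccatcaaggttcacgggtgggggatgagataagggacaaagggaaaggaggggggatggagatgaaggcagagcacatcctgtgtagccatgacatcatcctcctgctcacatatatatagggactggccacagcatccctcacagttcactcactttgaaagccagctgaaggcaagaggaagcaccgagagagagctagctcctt
The matches begin at positions -102 and -45 in Srxn1, -52 in Mgst2 and -207 in Nts, where the first base shown is -250. Srxn1 was at 34.3, 183, 47.3 and 85.4 CPM in the controls and at 19.5, 20.7, 18.8 and 18.0 on testosterone (log2 change -2.18 with SE 0.37, edgeR adjusted p = 0.00116), and its log2 fold change was -1.52 without control library 2 (adjusted p = 0.000878). Mgst2 was at 18.1, 22.1, 14.5 and 17.9 CPM against 3.73, 2.88, 1.88 and 2.37 (log2 change -2.73 with SE 0.26, edgeR adjusted p = 4.81e-06), and Nts at 0.907, 2.17, 1.43 and 1.21 CPM against 0.133, 0.295, 0.0578 and 0.144 (log2 change -3.18 with SE 0.50, edgeR adjusted p = 0.000702). A match is a description of the letters and not evidence of binding.

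Other motifs were searched in the same way, each on both strands. The full androgen and glucocorticoid response element, searched as an inverted repeat with a spacer, was in 0.362% of all promoters. It was in 0.507% of those of higher genes (3 of 592) and 0.291% of those of lower genes (2 of 688). The cyclic AMP response element, TGACGTCA, was in 2.89%, 1.01% and 2.47%, given in the same order. The NR5A element of steroidogenic factors, TCAAGGTCA, was in 0.275%, 0.338% and 0.145%, which came to 2 higher genes and 1 lower gene. The clock E-box CACGTG was in 9.71%, 8.11% and 7.56%, and the motif AGATAA, bound by the GATA family, in 6.92%, 9.12% and 6.4%. The TCF/LEF motif CTTTGAT was in 2.49%, 2.53% and 2.18%, and the GLI motif GACCACCCA in 0.197%, 0.507% and 0.291%, the last 2 being 3 higher and 2 lower genes. No test was made on these shares.

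Receptor tyrosine kinase genes were called in both directions, with 4 higher and 4 lower of 31. Kit, the receptor of stem cell factor on oocytes, theca and interstitial cells (chromosome 5, 75574916 to 75656722, plus strand), and Kitl, its ligand from granulosa cells, rose together. Kit was at 120, 61.9, 73.1 and 74.0 CPM in the controls and at 294, 333, 254 and 258 on testosterone (log2 change 1.79 with SE 0.24, edgeR adjusted p = 0.000137). Kitl was at 141, 126, 126 and 133 CPM against 247, 260, 233 and 199 (log2 change 0.83 with SE 0.12, edgeR adjusted p = 0.000368). All On T libraries lay above all controls for both. Pdgfa, a platelet-derived growth factor, fell from 32 ± 7.77 to 17.5 ± 1.47 CPM (log2 change -0.87 with SE 0.15, edgeR adjusted p = 0.00121), and so did Dusp6, a feedback phosphatase of the same pathways (log2 change -0.74 with SE 0.15, edgeR adjusted p = 0.00398). When control library 4 or On T library 2 was left out, 5 genes of this list were called, and 2 were lower in those fits and without On T library 1 or 4.

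In the TGF-beta, BMP and activin pathway, 5 of 41 genes were higher and 4 lower (22% called, against 9.27% of all genes tested). The number higher was 3 without control library 2, control library 4 or On T library 1. The ligand Tgfb1 was at 68.6, 94.4, 87.5 and 94.6 CPM in the controls and at 49.4, 54.0, 39.2 and 46.8 on testosterone (log2 change -0.87 with SE 0.13, edgeR adjusted p = 0.000326). Ltbp2 and Ltbp1, both named as latent TGF-beta binding proteins, moved apart. Ltbp2 was at 27.3, 26.4, 22.1 and 27.4 CPM against 63.4, 83.3, 48.8 and 67.8 (log2 change 1.35 with SE 0.15, edgeR adjusted p = 3.21e-05), while Ltbp1 fell from 545 ± 300.3 to 108 ± 32.1 CPM (log2 change -2.34 with SE 0.41, edgeR adjusted p = 0.00146). Chrdl1, a secreted BMP antagonist, was at 18.7, 9.67, 14.7 and 8.61 CPM against 40.8, 51.7, 28.2 and 48.8 (log2 change 1.71 with SE 0.24, edgeR adjusted p = 0.000268). The inhibin subunits Inha and Inhba did not pass (log2 0.19 and -0.27, edgeR adjusted p = 0.756 and 0.768).

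Of 18 genes of cytokine and prolactin receptors and their JAK-STAT signalling, 2 were higher and 2 lower, with 6 positive and a median of -0.18, and 1 was lower when On T library 1, 3 or 4 or control library 2 was left out. Lifr, the receptor of leukemia inhibitory factor, was at 76.6, 58.2, 57.5 and 65.7 CPM in the controls and at 156, 235, 129 and 170 on testosterone (log2 change 1.42 with SE 0.19, edgeR adjusted p = 0.000198). Il11ra1, the interleukin 11 receptor, was at 68.2 to 91.8 CPM against 119 to 141 (log2 change 0.71 with SE 0.09, edgeR adjusted p = 0.000107). Prlr, the prolactin receptor that sustains the corpus luteum, was at 321 to 633 CPM against 186 to 248 (log2 change -1.21 with SE 0.25, edgeR adjusted p = 0.00523).

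Hedgehog, angiogenic and retinoid genes were called in numbers that rested on single libraries. Of 13 Hedgehog genes, whose ligands pass from granulosa to theca cells, 4 were higher and 0 lower. The number was 1 without control library 2, 3 or 4 and 2 when control library 1 or On T library 2 was left out. Boc, a co-receptor, kept its call throughout and was at 49.1, 36.8, 45.1 and 37.7 CPM in the controls and 69.5, 88.4, 62.4 and 66.9 CPM on testosterone (log2 change 0.77 with SE 0.15, edgeR adjusted p = 0.00383). Of 21 angiogenic factors 4 were higher and 1 lower, and 2 in all without control library 2 or 4. Their median was 0.28, and 0.12 without On T library 2. Angpt2, which loosens vessel walls, was at 27.8 to 33.8 CPM against 73.6, 43.2, 40.0 and 45.9, and Angptl2, a secreted relative, at 45.9 to 55.4 CPM against 101, 73.6, 77.0 and 83.4 (log2 change 0.73 and 0.74 with SE 0.18 and 0.11, edgeR adjusted p = 0.0148 and 0.000326). The vessel growth factor Vegfa had a log2 fold change of 0.07 (with SE 0.22, edgeR adjusted p = 0.892). Of 20 retinoid genes 4 were higher and 2 lower, but 0 were called without On T library 4, and none of the 6 kept its call in every such fit.

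Peptide signals and the enzymes of cyclic AMP were called in both directions. Of 26 peptide hormone and receptor genes 4 were lower and 3 higher. Ramp1, which makes the receptor of the sensory neuropeptide CGRP (chromosome 1, 91179822 to 91225196, plus strand), was at 57.4, 71.2, 60.5 and 78.9 CPM in the controls and at 10.6, 11.7, 8.88 and 9.62 on testosterone (log2 change -2.72 with SE 0.28, edgeR adjusted p = 9.74e-06). Adcyap1, the neuropeptide PACAP that is induced in granulosa cells before ovulation, was at 1.71, 2.75, 1.33 and 2.48 CPM in the controls and had 8 counts in the 4 On T libraries together. Penk, the precursor of enkephalins, rose from 16.4 ± 5.77 to 56.3 ± 19.3 CPM (log2 change 1.78 with SE 0.31, edgeR adjusted p = 0.00136). The list had 1 gene higher and 5 lower without On T library 2, and 1 and 4 without control library 3. With control library 2 or On T library 1 left out, it had 1 gene higher and 3 lower.

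Of 30 adenylyl cyclases, phosphodiesterases and protein kinase A subunits, 2 were higher and 4 lower (20% called, against 9.27% of all genes tested). The number lower was 2 when control library 4 or On T library 4 was left out. Adcy5 and Adcy7, which make cyclic AMP, rose (log2 change 0.83 and 0.81 with SE 0.18 and 0.17, edgeR adjusted p = 0.00767 and 0.00622). For both the highest was On T library 2, at 108 CPM for Adcy5 and 78.0 CPM for Adcy7, and both kept their calls without it. Pde1a and Pde1b, which degrade cyclic nucleotides, fell (log2 change -0.48 and -1.03 with SE 0.10 and 0.23, edgeR adjusted p = 0.00561 and 0.00965).

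Genes of axon guidance and ion channels held single large falls. Sema3d, a secreted repellent of axons, was at 48.8, 249, 49.1 and 236 CPM in the controls and at 6.44, 11.1, 6.24 and 6.38 on testosterone (log2 change -4.28 with SE 0.65, edgeR adjusted p = 0.000512). Ephb2, a receptor of ephrins, fell from 17.1 ± 9.66 to 4.29 ± 0.432 CPM, and the guidance cue Ntn1 rose from 10.3 ± 1.14 to 22.6 ± 6.90 CPM (log2 change -1.99 and 1.14 with SE 0.40 and 0.24, edgeR adjusted p = 0.00414 and 0.00546). Of 40 such genes 2 were higher and 3 lower, and 5 and 5 without On T library 2. With all libraries that was 12.5% called, near the 9.27% of all genes tested. The potassium channel genes Kcnd2 and Kcnma1 were lower (log2 change -1.25 and -0.82 with SE 0.23 and 0.16, edgeR adjusted p = 0.00205 and 0.00338), among 2 higher and 4 lower of 36 channel genes. That was 16.7% called, against 9.27% of all genes tested. Of the channel genes, 2 were lower when control library 4 or On T library 4 was left out, and 4 were higher when On T library 3 was.

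The receptors of estrogen and progesterone did not pass the test. The estrogen receptor Esr1 was at 43.5 to 66.3 CPM against 48.9 to 74.9, and the progesterone receptor Pgr at 1.87 to 3.08 CPM against 1.42 to 3.47, and both overlapped between groups. Genes that androgens or glucocorticoids are known to induce were called in both directions, with 2 higher and 3 lower of 17 (29.4% called, against 9.27% of all genes tested). Of the 17, 11 had a positive log2 fold change, and the median was 0.2. The number higher was 1 when control library 3, control library 4 or any On T library but 3 was left out. Fkbp5, a chaperone and a standard target of androgens and glucocorticoids, was at 438, 938, 510 and 774 CPM in the controls and at 245, 201, 269 and 271 on testosterone (log2 change -1.43 with SE 0.22, edgeR adjusted p = 0.000561). Sgk1, a kinase induced by both hormones, was at 176, 375, 160 and 289 CPM against 41.4, 30.0, 36.1 and 33.2 (log2 change -2.83 with SE 0.28, edgeR adjusted p = 6.23e-06). The third that fell was Cdkn1a, given above. Ndrg2, another androgen-induced gene, rose from 148 ± 26.2 to 273 ± 43.6 CPM (log2 change 0.89 with SE 0.14, edgeR adjusted p = 0.000511). The glucocorticoid target genes Tsc22d3, Zbtb16 and Per1 had positive log2 fold changes of 0.28, 0.72 and 0.24 and did not pass (edgeR adjusted p = 0.175, 0.271 and 0.368).

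No tested gene of the TCA cycle, the respiratory chain or cholesterol synthesis passed. Of 18 genes of the TCA cycle, 28 nuclear subunits of the respiratory chain and 21 genes of cholesterol synthesis and uptake, 0 were called, with medians of -0.11, -0.06 and -0.23. At an unadjusted p below 0.05 edgeR gave 1, 2 and 0 of them, where the table as a whole held 4194 genes, and DESeq2 and limma called 0. The proteasome (24 genes) and the aminoacyl-tRNA synthetases (20 genes) also held 0 called by edgeR, DESeq2 or limma, with a median of -0.12 in each, and 0 and 4 genes at an unadjusted p below 0.05.

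Lipid carriers rose while a droplet protein fell. Fabp3 was at 106, 39.6, 78.2 and 53.1 CPM in the controls and at 199, 182, 162 and 156 on testosterone, and Fabp5 at 57.0 to 88.5 CPM against 124 to 161 (log2 change 1.34 and 0.92 with SE 0.25 and 0.16, edgeR adjusted p = 0.00272 and 0.0018). Both encode fatty acid binding proteins. Plin5, which ties lipid droplets to mitochondria and is a chromosomal neighbour of Plin4, fell from 7.85 ± 5.20 to 0.898 ± 0.195 CPM (log2 change -3.09 with SE 0.63, edgeR adjusted p = 0.00491). Cpt1a and Cpt2, which carry fatty acids into mitochondria, were lower (log2 change -0.36 and -0.65 with SE 0.09 and 0.13, edgeR adjusted p = 0.012 and 0.00361). Me1, the malic enzyme that supplies reducing power for synthesis, was at 1179, 885, 853 and 862 CPM in the controls and at 493, 502, 683 and 402 on testosterone (log2 change -0.86 with SE 0.19, edgeR adjusted p = 0.00814), and it was the only gene called of 19 in fatty acid synthesis, where 2 were without On T library 3.

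Some detoxifying, stress and metal-handling genes were called. Gstt1 was at 19 to 26.0 CPM in the controls and at 40.4, 43.1, 32.3 and 43.2 on testosterone (log2 change 0.86 with SE 0.14, edgeR adjusted p = 0.000673). It was among 3 higher and 1 lower of 21 glutathione transferases (19% called, against 9.27% of all genes tested). Gpx3, the secreted glutathione peroxidase, fell from 759 ± 173 to 411 ± 83.9 CPM (log2 change -0.89 with SE 0.18, edgeR adjusted p = 0.00436). Pdia4, a folding enzyme of the endoplasmic reticulum, was at 535, 581, 688 and 656 CPM in the controls and at 265, 159, 331 and 295 on testosterone (log2 change -1.23 with SE 0.19, edgeR adjusted p = 0.000673). It was 1 of 2 lower of 21 genes of the stress response of that organelle. That share of 9.52% was close to the 9.27% called of all genes tested. In this list 1 gene was lower when any library other than control libraries 1 and 3 and On T library 3 was left out. Of 22 genes that handle metals 5 were higher and 1 lower (27.3% called). Mt3, a zinc-binding metallothionein, was at 18.6, 6.89, 16.1 and 9.48 CPM against 30.8, 37.4, 32.8 and 30.9 (log2 change 1.36 with SE 0.26, edgeR adjusted p = 0.00301), and Slc39a8, a zinc importer, at 5.11 to 5.98 CPM against 7.60 to 10.3 (log2 change 0.74 with SE 0.13, edgeR adjusted p = 0.00135). Gldc, which breaks down glycine, fell from 2.85 ± 1.84 to 0.269 ± 0.0468 CPM (log2 change -3.38 with SE 0.59, edgeR adjusted p = 0.00158), with control libraries 2 and 4 at 4.95 and 3.84 CPM and libraries 1 and 3 at 1.27 and 1.33.

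Transcription factors and clock genes were called in both directions. Maf, a leucine zipper factor of the gonadal interstitium and of macrophages, was at 121, 282, 130 and 219 CPM in the controls and at 43.4 to 81.3 on testosterone (log2 change -1.68 with SE 0.24, edgeR adjusted p = 0.000293). Tcf21, a factor of stromal progenitors, was at 49.7 to 62.1 CPM against 72.2 to 108 (log2 change 0.68 with SE 0.12, edgeR adjusted p = 0.00141). Of 18 clock genes 3 were higher and 2 lower, and 3 in all were called when control library 2 or On T library 1 was left out. The repressors Bhlhe40 and Nfil3 fell, and Hlf, an output factor that binds the same sites as Nfil3, rose. Hlf was at 13.2, 9.91, 8.23 and 13.3 CPM against 23.9, 38.8, 16.6 and 25.9 (log2 change 1.24 with SE 0.23, edgeR adjusted p = 0.00227). Nfil3 was at 18.9 to 24.5 CPM against 9.63 to 13.1, and Bhlhe40 at 55.3 to 96.7 CPM against 27.0 to 35.1 (log2 change -0.88 and -1.08 with SE 0.14 and 0.17, edgeR adjusted p = 0.000714 and 0.000611). The time of day of collection was not given in the sources used here. Per2, a core clock gene, had a log2 fold change of 0.64 (with SE 0.24, edgeR adjusted p = 0.124).

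Among the most abundant genes per transcript length, 8 were named, of which 7 were lower and 1, Apoe, a lipid carrier, higher. The calls of Apoe, Actg1 and Sparc were each lost in 5 of the 8 fits that left out 1 library, control libraries 2 and 4 among them. The length-scaled level (TPM) of Cyp11a1, which starts steroid synthesis, averaged 3503 in the controls and 821 on testosterone, and its CPM were 4642 to 5119 in the controls and 903, 896, 2232 and 624 on testosterone. On T library 3 kept the most of it. Fdx1, the electron carrier of that enzyme, followed the same order, at 490 to 844 CPM against 173, 143, 492 and 119, and On T library 3 overlapped the controls. Its log2 fold change was -1.58 (SE 0.46, edgeR adjusted p = 0.0406), and the value was -2.25 when On T library 3 was left out (adjusted p = 0.0029), whereas leaving out any other library ended its call. Ybx1, an RNA-binding cold shock protein, averaged 952 TPM in the controls and 533 TPM on testosterone (log2 change -0.84 in CPM with SE 0.14, edgeR adjusted p = 0.00116), and H2afz, a histone variant, 951 and 667 TPM (log2 change -0.49 in CPM with SE 0.11, edgeR adjusted p = 0.0113). Both have many processed pseudogenes and are uncertain for that reason. Mgp, an inhibitor of calcification made by stroma and vessels, was at 204 to 252 CPM against 101 to 166 (log2 change -0.84 with SE 0.13, edgeR adjusted p = 0.000407).

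Some of these values could hold reads of another gene. Exons of Cdkn1c, Pdgfa, Fabp3, Gadd45a, Uchl1, Sfrp2 and Myh7 overlap those of a gene on the other strand over 30.7%, 26.1%, 19.6%, 19.1%, 18.1%, 16.1% and 13.3% of their length, those of Angpt1 over 14.2%, and the use of strand in counting was not given in the sources used here. Ovgp1 shares 28.7% of its exon length with a gene on the same strand. Ccl21a and Il11ra1 have near-identical copies in the mouse genome and are uncertain in the same way.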

How the data were processed

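The authors deposited expected counts and TPM (transcript abundance scaled for length and depth) per gene of 16 ovary libraries. Per the submitters' processing notes, the tools included RSEM 1.3.3, STAR 2.7.8a, FastQC 0.11.8 and cutadapt 2.3, and the build was GRCm38. The annotation release was not given in the sources used here. Fragments per kilobase values were not used. Expected counts were rounded, filtered with filterByExpr (minimum count 10) and TMM-scaled. All 16 libraries entered 1 edgeR 4.0.16 quasi-likelihood fit (R 4.3.3) with a mean per group, at a Benjamini-Hochberg adjusted p of 0.05. CPM are counts relative to the TMM-scaled library size, and depth was 29004008 to 52659637 counts.

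Alternatives were median-of-ratios scaling, other filters, DESeq2 1.42.0, limma 3.58.1 on log2(TPM + 1), the 8 libraries alone, a replicate block and leaving out each library. The edgeR fit was tested on simulated data. The members, 66 gene lists and tests were chosen with earlier results of these data known. Under the naming rule, genes were the 12 largest rises and 12 largest falls without overlap, outside the 3 luteal, steroid and immune lists, at 5 CPM or more, 8 abundant called genes, the called list members with the smallest p, and 10 fixed genes. Other list members in the text, and the counts of neighbours and chromosomes, were chosen after their values were seen. Replicates were separate mice. Some results are not reported here.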

Additional observations from a re-analysis of the deposited data

Results flagged for a closer look

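In 16 of 302 groups of 4 libraries examined (5.3%, where about 5% arise by chance), 1 library lay far from the other 3 of its group. On T library 2 held 8 of them. It was the highest of its group for Adcy7 at 78.0 CPM (others 41.4 to 46.4), Angpt1 at 39.0 (others 22.0 to 24.0), Gli1 at 46.9 (others 22.5 to 25.1), Mylk at 731 (others 348 to 405) and Ogn at 488 (others 257 to 284). It was also the highest for Sema3d at 11.1 CPM, Sfrp2 at 3.57 and the fat marker Adipoq at 1.97. On T library 3 stood apart for Akr1c18 at 1.04 CPM (others 0.459 to 0.552), Fdx1 at 492 (others 119 to 173) and Megf10 at 2.23, and was the lowest for Sult1a1 at 24.3 (others 35.0 to 36.8). On T library 4 was the highest for Ces2a at 0.231 CPM and the lowest for the summed mast cell and neutrophil markers at 11 CPM (others 16.1 to 16.9). Control library 1 was the highest for Me1 at 1179 CPM and for the summed oviduct and cilia markers at 43.0 CPM (others 33.2 to 34.7).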

How the results depend on the processing

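The number of called genes (1746, of which 799 higher and 947 lower) was 1130 with 490 higher by limma on log2(TPM + 1), and 1081 to 1764 with each library left out in turn, with 470 to 946 higher and 603 to 932 lower. The count was 1094 without control library 2 (470 higher, 624 lower), 1081 without control library 4 (478 higher, 603 lower), and 624 were lower without On T library 1. Without On T library 3 higher calls outnumbered lower ones (946 against 818). DESeq2 called 2346, and there too higher calls outnumbered lower ones (1192 against 1154). The 8 libraries alone gave 1335, median-of-ratios scaling 1723 (838 higher, 885 lower), no filter 1574 and a 1 CPM filter 1635. With the replicate number as a block the calls were 850 (315 higher, 535 lower). The deviations of same-numbered libraries from their group means correlated at -0.0194, 0.13, 0.0319 and -0.0052. These values do not settle whether the numbers pair the mice, and the labels name no pairing. Of the 129 called genes of the naming rule 102 kept their call in all 15 alternatives, 15 lost it without some library and 20 under the block, and 0 changed sign. Among genes not called, Esr1 had a log2 fold change between -0.004 (without On T library 2) and 0.313 (without control library 1), Pgr between -0.427 and 0.032 (On T libraries 2 and 4 left out in turn), and Ovgp1 passed without On T library 3 (-1.74, edgeR adjusted p = 0.0493). The cause was not tested. Depth limits genes near 3 counts, 0.0571 to 0.102 CPM.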

Other observations

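Single genes of several further groups kept their calls without each library in turn. Igfbp6 and Stc2, secreted proteins of the insulin-like growth factor system, rose, and the other 15 of 17 tested genes of that system did not pass. That share of 11.8% called was near the 9.27% of all genes tested. Stc2 was at 15.9, 13.2, 17.0 and 16.6 CPM in the controls and at 25.6, 39.1, 20.1 and 30.1 CPM on testosterone (log2 0.87, SE 0.18, edgeR adjusted p = 0.0045). Tppp3, a microtubule-binding protein of oviduct and tendon cells, was at 15.9 to 30.1 CPM against 33.9 to 52.8 CPM (log2 1.04, SE 0.17, edgeR adjusted p = 0.000896). Rsph1, the other called gene of 12 oviduct and cilia markers tested, was lower (log2 -0.94), and its call was lost in 4 of the fits that left out 1 library. Map1lc3a, a protein of autophagosomes, was at 126 to 168 CPM against 83.1 to 104 CPM (log2 -0.63, SE 0.13, edgeR adjusted p = 0.00663). It was among 3 lower of 20 autophagy genes (15% called), of which 1 kept its call throughout. Irx5, a homeobox factor of the developing ovary, was at 7.99, 17.5, 8.41 and 16.9 CPM against 5.27 to 6.59 CPM, and control libraries 2 and 4 were again the higher controls.

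Called genes were unevenly spread over chromosomes, as seen after the values were known. Of 689 tested genes of the X chromosome 7.55% were higher and 2.61% lower, where the other chromosomes held 4.12% higher and 5.12% lower. The share higher was larger on the X in each of the 16 settings run, from 2.71% against 1.7% under the block to 11.3% against 6.14% by DESeq2. Of 1389 processed pseudogenes 3 were higher and 28 lower, while 10.5% of protein-coding genes were called.

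Among 18779 pairs of adjacent tested genes 252 had both members called, 195 in the same direction and 57 in opposite directions. Of all genes tested 9.27% were called, so some such pairs arise without any link between neighbours, and their number was not worked out. Some neighbours also share exon bases, as Cyp11a1 and Gm17322 do, and could share reads. On chromosome 13 the adjacent small proteoglycan genes Aspn, Omd and Ogn and their neighbour Ecm2 were all higher (log2 1.23, 0.89, 0.89 and 1.18). Prelp and Fmod on chromosome 1 were both higher (1.02 and 0.98), and the next gene, Btg2, was lower (-1.14). Next to Myh6 on chromosome 14, Cmtm5 fell by 4.56 on the log2 scale.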
